A study of Chlamydomonas reinhardtii with 16 samples.

Results

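The 122 genes described here are those of Chlamydomonas reinhardtii, a unicellular green alga, whose transcript levels were far lower after 30 min of light than in the dark in both strains and with or without biliverdin. They were chosen on these same measurements from 17301 genes. The level in the light, with 1 RPKM added to each group mean, had to be at most 0.33 of the level in the dark in all 4 conditions, and each dark group had to average at least 5 RPKM (read counts scaled to gene length and to library size). Of 6428 genes that reached this dark level everywhere, 134 met the light threshold, and 12 of those were left out because their level in the light was at least 1.7 times as high with biliverdin as without it in both strains. The choice depends on the scaling of the libraries and on the RPKM added: with TMM scaling 68 genes met the rule, 67 of them among the 122. With quantile scaling 104 met it, 89 of them among the 122, and with 0.1 RPKM added 157 did, 108 of them among the 122. The deposited identifiers are not paired with gene names, and the reference table gives no name other than the locus tag, so members appear by identifier and no role is given to them.

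The level of a transcript in a cell is set by its synthesis and its degradation. Heme oxygenase opens the ring of heme inside the plastid and makes biliverdin IXα (BV), a linear tetrapyrrole from which other bilins are formed. In Chlamydomonas such bilins are known as signals from the plastid to nuclear genes when dark-grown cells first meet light.

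The strains were hmox1, a mutant of heme oxygenase whose allele the labels do not describe further, and the 4A+ wild type. The medium held acetate, 0.5% methanol and either 0.1 mM BV IXα or none, and cultures grew in darkness. Cells were collected in the dark or once lit for 30 min (150 µmol photons m-2 s-1 of white light). All groups therefore share the methanol. The 8 groups had 2 libraries each, of 10213385 to 43414139 reads in genes, recovered from the steps of the deposited RPKM values. The labels name no separate cultures for the 2 libraries of a group. The p-values thus reflect the spread between libraries alone, and that spread may be technical. The transcript of the mutated gene could not be looked up by name, so the mutant label was not checked against it.

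In the light, the level left was largest in BV-fed hmox1 and smallest in wild type. The median member kept 18.1% of its dark RPKM in BV-fed hmox1 and 11.96% in untreated hmox1. It kept 6.31% in BV-fed wild type and 5.38% in untreated wild type. The corresponding median light effects, on the log2(RPKM + 1) scale, were -2.05, -2.37, -3.03 and -3.01. Over all 13972 genes tested the medians in the same order were -0.16, -0.35, -0.37 and -0.57. The members were chosen on these ratios, so they are given with no test.

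**Figure D1:**
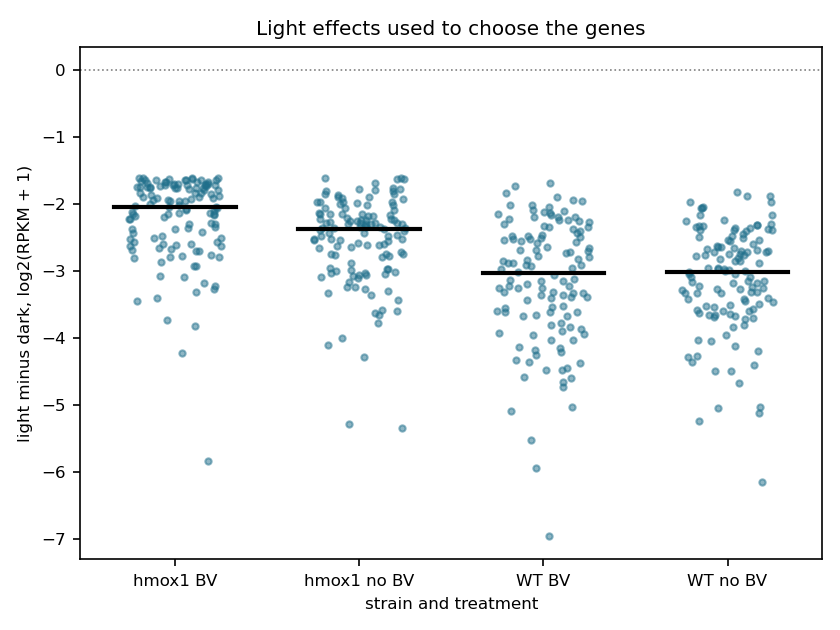
Light minus dark on the log2(RPKM + 1) scale (vertical axis) for each of the 122 genes (points) in the 4 strain and treatment conditions (horizontal axis, points spread sideways for legibility), with the median as a bar. The medians run from -2.05 in BV-fed hmox1 to -3.03 in BV-fed wild type, and no point lies above the threshold that chose the genes.

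The least deep of a gene's 4 light effects was that of BV-fed hmox1 in 96 of the 122 genes. The effect was less deep in BV-fed than in untreated hmox1 for 101 genes, and less deep in BV-fed hmox1 than in BV-fed wild type for 118. Without BV it was less deep in hmox1 than in wild type for 114 genes. Between BV-fed and untreated wild type the members were split, with the less deep effect in the BV-fed cultures for 62 genes. Members below 1 RPKM on average in the light numbered 24 in BV-fed hmox1, 43 in untreated hmox1, 59 in BV-fed wild type and 67 in untreated wild type. None of these counts was made over all genes tested or with TMM or quantile scaling. The median of all genes was also least deep in BV-fed hmox1 (-0.16) and deepest in untreated wild type (-0.57). The counts therefore only describe the members and are not read as a trait of them.

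Summed over the members, RPKM in the light were 941 and 961 in BV-fed hmox1, 575 and 625 in untreated hmox1, 661 and 716 in BV-fed wild type, and 576 and 489 in untreated wild type. In the dark the sums were 4451 and 4543 in BV-fed hmox1, 4534 and 4410 in untreated hmox1, 6483 and 6180 in BV-fed wild type, and 5825 and 5381 in untreated wild type. Every lit library lay below every dark one, and among lit libraries those of BV-fed hmox1 were highest. RPKM are shares of a library, so less RNA of a gene per cell cannot be told apart from fewer contributing cells or from more RNA of other genes. No member was at 0 reads in any library, but 16 members had 3 reads or fewer in replicate 2 of lit wild type without BV, the shallowest library, against 0 or 1 in each of the others.

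**Figure D2:**
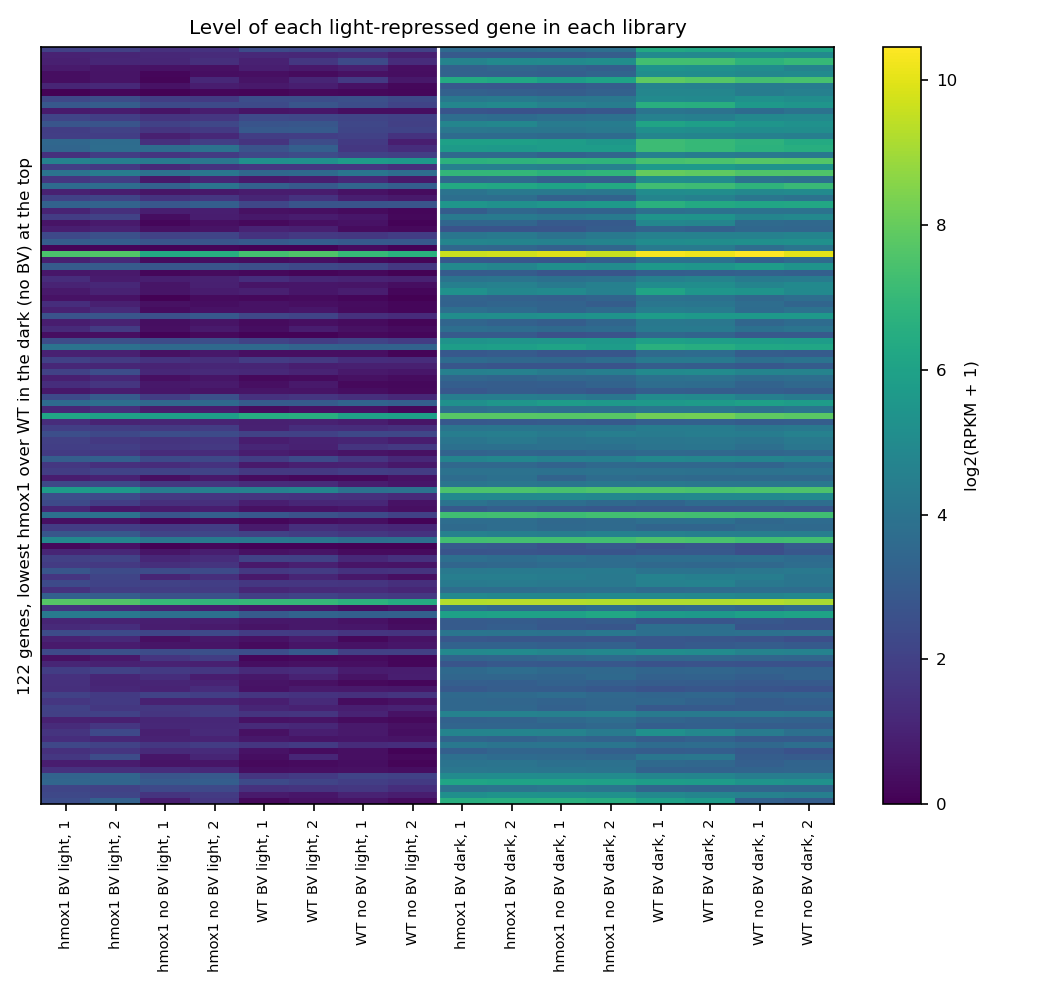
Level of the 122 genes (rows) in the 16 libraries (columns), as log2(RPKM + 1) by colour, with light libraries left of the white line and dark libraries right of it. Rows run from the gene lowest in dark hmox1 relative to dark wild type without BV (top) to the highest (bottom), and every row is darker, that is lower, in the lit libraries of each condition.

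Dark levels ran from 5.70 to 1023 RPKM as a mean over the 8 dark libraries, with a median of 15.0, against 15.3 for all genes that passed the dark threshold. Only 10 members averaged over 100 RPKM. The most abundant was Cre17.g702900. In the light it had 177 and 196 RPKM in BV-fed hmox1, 77.6 and 90.6 in untreated hmox1, 161 and 189 in BV-fed wild type, and 126 and 99.1 in untreated wild type. In the dark it had 793 and 840 RPKM in BV-fed hmox1, 951 and 759 in untreated hmox1, 1255 and 1160 in BV-fed wild type, and 1400 and 1026 in untreated wild type. The lit BV-fed libraries were above the lit libraries without BV in each strain.

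The next most abundant, Cre15.g641200, was also 1 of the members nearest to the threshold. Its lit levels were 205 and 197 RPKM in BV-fed hmox1, 126 and 118 in untreated hmox1, 123 in each library of wild type with BV, and 103 and 85.4 in untreated wild type. In the dark its libraries lay between 559 and 630 RPKM in all 4 groups, and no strain or BV difference before light was called. Its highest light-to-dark ratio, in BV-fed hmox1, was 0.328. The next members inside the threshold were Cre09.g402800 at 0.329 and Cre04.g223200 at 0.329, and the first genes outside it were Cre03.g162500 at 0.3301, Cre02.g073750 at 0.332 and Cre12.g545550 at 0.332.

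Of the other abundant members, Cre01.g054500 was as even in the dark, between 171 and 184 RPKM in every library. In the light it had 53.2 and 48.8 RPKM in BV-fed hmox1, 19.8 and 22.8 in untreated hmox1, 22.5 and 25.4 in BV-fed wild type, and 13.8 and 14.3 in untreated wild type. The BV-fed libraries of each strain were again above the untreated ones, and those of BV-fed hmox1 were highest. Cre26.g772900 differed between the strains in the dark, with 121 and 120 RPKM in BV-fed hmox1, 103 and 113 in untreated hmox1, 249 and 232 in BV-fed wild type, and 191 and 188 in untreated wild type. Cre07.g338450, Cre06.g296700, Cre03.g164600 and Cre01.g013350 completed the 8 most abundant.

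The deepest fall in the light, averaged over the conditions, belonged to Cre16.g661200. Lit libraries held 0.296 and 0.476 RPKM in BV-fed hmox1, 0.109 and 1.26 in untreated hmox1, 0.483 and 1.12 in BV-fed wild type, and 2.42 and 0.608 in untreated wild type. Dark libraries held 81.8 and 74.8 RPKM in BV-fed hmox1, 54.9 and 66.7 in untreated hmox1, 231 and 207 in BV-fed wild type, and 160 and 171 in untreated wild type. At most 1.13% of the dark level was left in any condition, and lit replicates differed widely, most of all in untreated hmox1, at 7 and 185 reads in libraries of unequal depth. After it came Cre06.g263200, Cre11.g474100, Cre03.g164600, Cre13.g603550, Cre17.g707350, Cre10.g465550 and Cre14.g627050.

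Members differed in how even their light effects were. Cre07.g339200 was the most even, with effects of -1.85 in BV-fed hmox1, -1.80 in untreated hmox1, -1.84 in BV-fed wild type and -1.88 in untreated wild type. Cre03.g183750, a low gene, had -2.60, -2.64, -2.63 and -2.69 in the same order, and Cre12.g560800 and Cre07.g338450 were next. The least even was Cre03.g191300, with -2.09 in BV-fed hmox1, -1.96 in untreated hmox1, -4.17 in BV-fed wild type and -5.12 in untreated wild type. Cre17.g707350, Cre13.g603550 and Cre12.g489300 were the next least even.

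In the dark, the members were more often lower than higher in hmox1, whereas more of all genes were higher. Without BV, 45 members (36.9%) were lower in hmox1 at adjusted p under 0.05 and 15 (12.3%) were higher (limma, Benjamini-Hochberg over all genes tested). Of all genes tested, 8.49% were called lower and 26.5% higher, and among genes over the dark threshold the shares were 8.79% and 31.1%. The median member was at -0.11 on the log2(RPKM + 1) scale, and the median gene at 0.12. The same libraries set the members' dark minimum and light ratios, which limits how freely the strains could differ. These counts thus describe the members and are no independent test of them.

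With BV in the dark, 59 members (48.4%) were lower in hmox1 and 11 (9.02%) were higher. The shares of all genes were 12.3% lower and 30.3% higher. The median member was at -0.29 and the median gene at 0.12. The dark means compared here entered the choice of members too, so these counts are no independent test of them either. These comparisons with and without BV share no library. Of the members lower in hmox1, 44 were called in both, which is 97.8% of the 45 and 74.6% of the 59, and of those higher 8 were called in both, 53.3% of the 15 and 72.7% of the 11. No member was called in opposite directions. These overlaps were not counted over all genes tested, so they are not read as a trait of the members. A difference of 2-fold or more on this scale was reached by 12 of the lower members and 1 of the higher without BV, and by 21 of the lower and 0 of the higher with BV. The 2-fold share of all genes was not counted, so these numbers only describe the members. Scaling that brings the median gene near 0 left fewer members higher, with 8 higher and 56 lower without BV by TMM and 10 and 60 by quantile scaling, and with BV 4 higher and 66 lower by TMM and 7 and 70 by quantile scaling. A pseudocount of 0.1 left 9 higher and 29 lower without BV.

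**Figure D3:**
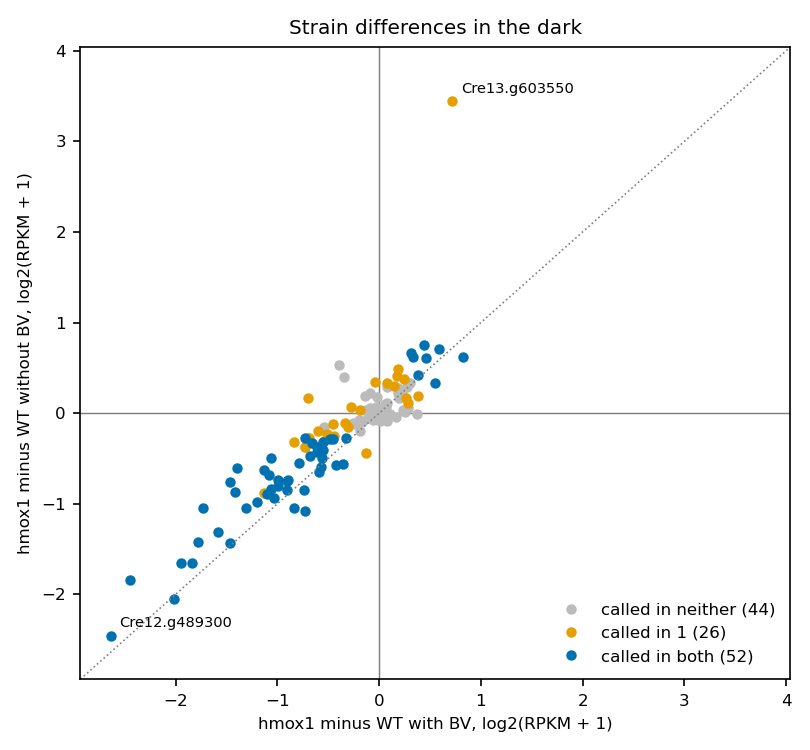
Strain difference in the dark, hmox1 minus wild type on the log2(RPKM + 1) scale, with BV (horizontal axis) and without BV (vertical axis), for the 122 genes. Points are coloured by whether the gene was called at adjusted p under 0.05 in both comparisons, in 1 or in neither, the dotted line marks equal values, and Cre13.g603550 stands apart at 0.72 with BV and 3.44 without.

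Cre12.g489300 was the member with the largest deficit in hmox1. It had 11.4 and 11.5 RPKM in dark hmox1 against 81.0 and 72.2 in dark wild type with BV, and 12.3 and 12.9 in dark hmox1 against 77.0 and 70.7 in dark wild type without BV. The strains did not overlap, and no BV difference in the dark was called for this gene in either strain. The log2 difference was -2.63 with BV (SE 0.09, limma adjusted p = 4.8e-12) and -2.46 without BV (SE 0.09, limma adjusted p = 7.6e-12). In the light it was lower in hmox1 too, by a smaller margin, with 3.09 and 2.90 RPKM in BV-fed hmox1 against 4.19 and 3.80 in BV-fed wild type, and 1.72 and 1.86 RPKM in untreated hmox1 against 3.54 and 3.13 in untreated wild type.

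Cre13.g572600 had 6.82 and 6.51 RPKM in dark hmox1 against 30.8 and 29.0 in dark wild type with BV. Without BV it had 6.59 and 7.37 RPKM in dark hmox1 against 32.6 and 31.2 in dark wild type. All lit libraries of this gene lay between 0.865 and 1.44 RPKM, and the strain difference was called before light but not after it. Cre06.g263200 had 24.8 and 30.3 RPKM in dark hmox1 against 154 and 155 in dark wild type with BV, at -2.45 (SE 0.32, limma adjusted p = 0.0002), and 30.6 and 33.5 RPKM in dark hmox1 against 108 and 127 in dark wild type without BV. Its lit libraries ran from 0.893 to 4.03 RPKM and the strains overlapped. Cre06.g307750 was the fourth, at -1.95 with BV and -1.66 without BV.

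Among members higher in dark hmox1, Cre13.g603550 differed most. Without BV it had 97.4 and 90.1 RPKM in hmox1 against 8.23 and 7.23 in wild type, at 3.44 (SE 0.28, limma adjusted p = 5.5e-06). With BV it had 93.3 and 96.4 RPKM in hmox1 against 61.9 and 52.7 in wild type, which missed the threshold at 0.72 (SE 0.28, limma adjusted p = 0.059). The other higher members differed far less. Cre17.g742550 had 16.7 and 16.3 RPKM in BV-fed hmox1 against 8.88 and 8.86 in BV-fed wild type, and Cre07.g339200 had 16.8 and 15.7 in untreated hmox1 against 9.49 and 9.70 in untreated wild type. Cre09.g396600 and Cre12.g561500 followed without BV at 0.75 and 0.66, and Cre09.g402800 and Cre02.g098850 with BV at 0.55 and 0.46. The last of these was not called with a pseudocount of 0.1 (limma adjusted p = 0.083).

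After light, more members were higher than lower in hmox1, as were more of all genes. The lit means compared here also entered the ratios that chose the members, so these counts describe the members and are no independent test of them. With BV, 87 members (71.3%) were higher in hmox1 and 6 (4.92%) were lower, while 52.2% of all genes were called higher and 9.23% lower. The median member was at 0.57 and the median gene at 0.29. Without BV, 68 members (55.7%) were higher and 8 (6.56%) lower, close to the 53.5% and 7.72% of all genes, and the medians were 0.34 and 0.29. Of the members higher in hmox1, 63 were called in both comparisons, 92.6% of the 68 and 72.4% of the 87. This overlap was not counted over all genes tested, so it is not read as a trait of the members.

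The split in the light depended on the scaling, so no lean of the members is read from it. By TMM there were 62 higher and 14 lower members with BV, and 42 and 16 without BV. By quantile scaling there were 48 and 20 with BV, and 25 higher against 28 lower without BV, where the majority turned. The comparison with BV rests on lit wild type with BV, whose 2 libraries had the largest median SD, 0.12 on the log2 scale against 0.05 to 0.08. Their correlation, at 0.9948, was not the lowest, which was 0.9941 in dark wild type without BV. With a pseudocount of 0.1 the median member was at 0.95 with BV and 0.66 without BV, and the median gene at 0.40 and 0.44.

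**Figure D4:**
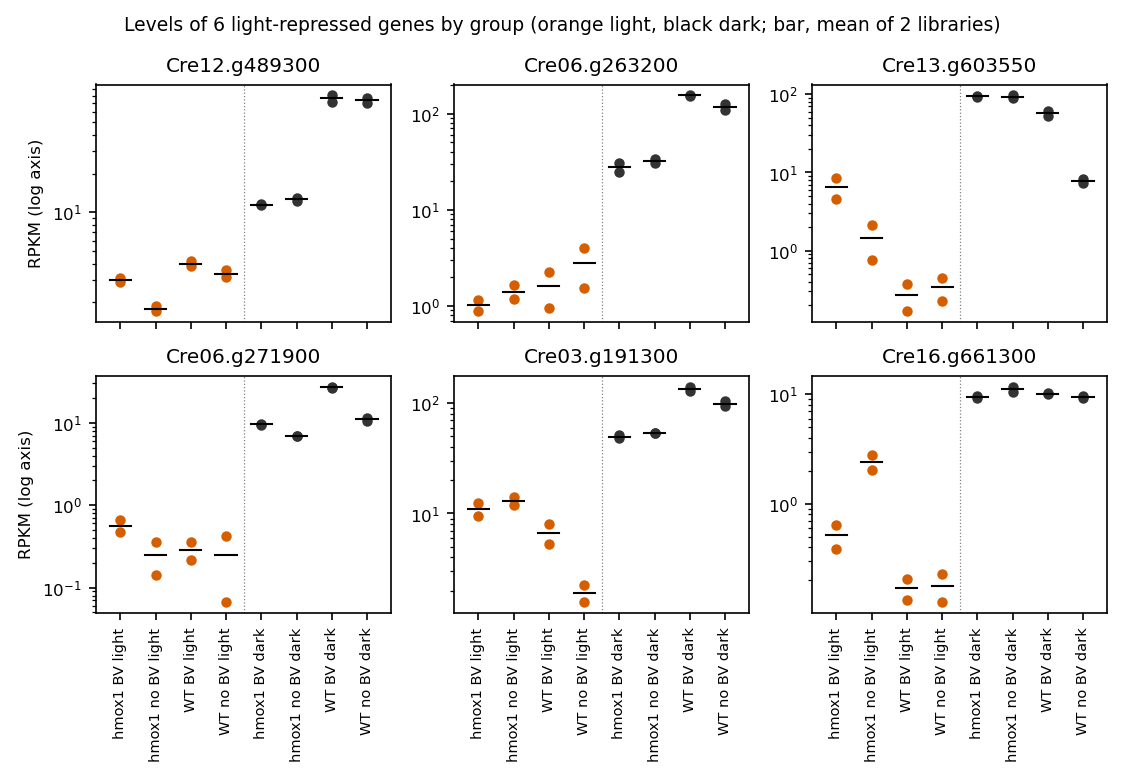
RPKM (log axis) of 6 members in every library (points) of the 8 groups, light in orange and dark in black, with the mean of the 2 libraries as a bar. Cre12.g489300, Cre06.g263200 and Cre03.g191300 were lower in dark hmox1 than in dark wild type. Among dark groups Cre13.g603550 was lowest in wild type without BV and Cre06.g271900 was highest in wild type with BV. Among lit groups Cre16.g661300 was highest in untreated hmox1.

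On the log2(RPKM + 1) scale Cre03.g191300 had the largest excess in lit hmox1 without BV, with 11.9 and 14.2 RPKM in hmox1 against 2.24 and 1.57 in wild type. The difference was 2.28 (SE 0.16, limma adjusted p = 1.5e-07). With a pseudocount of 0.1 Cre16.g661300 was above it, at 3.18 against 2.73, and with voom on recovered reads at 3.66 against 2.72. With BV Cre03.g191300 had 9.49 and 12.5 RPKM in hmox1 against 5.30 and 7.97 in wild type, at 0.66 (SE 0.16, limma adjusted p = 0.0037). In the dark the order was the reverse, with 53.7 and 53.6 RPKM in untreated hmox1 against 105 and 93.8 in untreated wild type, and 51.1 and 48.4 in BV-fed hmox1 against 141 and 128 in BV-fed wild type.

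Cre16.g661300 had 2.03 and 2.78 RPKM in lit hmox1 against 0.230 and 0.127 in lit wild type without BV, and 0.384 and 0.648 in lit hmox1 against 0.132 and 0.208 in lit wild type with BV. Its dark libraries lay between 9.18 and 11.7 RPKM in every group. In lit hmox1 it was thus lower with BV than without, by 1.16 on the log2 scale, the largest such drop among the members. With BV, the largest excess in lit hmox1 on the log2(RPKM + 1) scale was that of Cre13.g603550, with 4.54 and 8.40 RPKM in hmox1 against 0.169 and 0.375 in wild type. Cre16.g687350 came next on that scale, at 1.68, with 8.92 and 9.66 RPKM in hmox1 against 2.06 and 2.39 in wild type, followed by Cre17.g707350 at 1.61 and Cre09.g396600 at 1.52. With a pseudocount of 0.1 this order turned, with Cre09.g396600 at 2.39, Cre16.g687350 at 2.02 and Cre17.g707350 at 1.90. Without BV, Cre17.g708000 was at 1.35 and Cre12.g561500 at 1.20.

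Few members were lower in lit hmox1, and 5 were called so with and without BV. Cre01.g013350 had 18.2 and 16.9 RPKM in lit hmox1 against 53.5 and 49.6 in lit wild type without BV, at -1.50 (SE 0.07, limma adjusted p = 1.1e-10). With BV it had 23.9 and 21.8 RPKM in lit hmox1 against 36.7 and 38.0 in lit wild type. It was lower in dark hmox1 as well, by 0.85 without BV and 0.73 with BV, so its order was the same before and after light. Cre12.g516650 had 2.77 and 3.15 RPKM in lit hmox1 against 6.57 and 6.74 in lit wild type with BV. Without BV, Cre02.g132184 was at -0.69, Cre12.g489300 at -0.64 and Cre11.g474950 at -0.56, and with BV Cre16.g672552 was at -0.65 and Cre07.g338450 at -0.44.

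Each of the 15 members higher in dark hmox1 without BV was also called higher in lit hmox1 without BV, and each of the 11 with BV likewise. Of all genes higher in dark hmox1, 73.7% were also called higher in lit hmox1 without BV and 66.1% with BV. Those lower in dark hmox1 were divided in the light. Without BV, 8 of the 45 remained lower and 11 were higher, and with BV 6 of the 59 were lower and 32 were higher. Of all genes lower in dark hmox1, 17.2% were higher and 28.2% lower in lit hmox1 without BV, and 24.4% were higher and 24.6% lower with BV. Genes lower in dark and higher in lit hmox1 with no overlap of libraries made up 1.46% of all genes without BV and 2.97% with BV. With quantile scaling the numbers lower in dark and higher in lit hmox1 were 4 without BV and 22 with BV, and with TMM 7 and 26. The strain-by-light difference itself is built from the ratios that chose the genes and was not tested.

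In dark wild type fed with BV, 21 members (17.2%) were higher than in untreated wild type and 1 (0.820%) was lower, against 3.74% and 1.72% of all genes, and 3.30% and 3.11% of genes over the dark threshold. The median member was at 0.15, and the median gene at -0.02. The dark means compared here also entered the ratios and the dark minimum that chose the members. These counts thus describe the members and are no independent test of them. The rises ran from 0.32 to 2.74 on the log2 scale, and 6 of them were 2-fold or more, a share not counted over all genes. The count rested on all 4 dark wild-type libraries, since leaving out any 1 of them gave 6 to 13 calls, with 6 without replicate 1 and 8 without replicate 2 of the BV-fed wild type, and 13 without replicate 1 and 12 without replicate 2 of the untreated wild type. A pseudocount of 0.1 left 8 calls.

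Cre13.g603550 showed the largest rise, with 61.9 and 52.7 RPKM in BV-fed against 8.23 and 7.23 in untreated dark wild type, at 2.74 (SE 0.28, limma adjusted p = 0.00021). Cre06.g271900 had 27.4 and 26.4 RPKM in BV-fed against 11.3 and 10.6 in untreated wild type, at 1.22 (SE 0.13, limma adjusted p = 1.3e-05). Its level in the light was under 1 RPKM in every library. Cre03.g181200 had 33.4 and 31.7 RPKM in BV-fed against 14.7 and 14.0 in untreated wild type, and Cre03.g155250 had 16.4 and 16.6 against 7.51 and 6.91. The only member called lower was Cre11.g474900, with 22.9 and 21.6 RPKM in BV-fed against 28.6 and 29.1 in untreated wild type, at -0.37 (limma adjusted p = 0.030). Cre03.g155250 and Cre11.g474900 lost their calls when any 1 dark wild-type library was left out. With a pseudocount of 0.1 these genes and Cre06.g271900 were not called, at adjusted p of 0.30, 0.064 and 0.17.

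In dark hmox1 BV was followed by no called change among the members, at 0 higher and 0 lower by limma, where 0.193% of all genes were called higher and 0.129% lower. At an unadjusted p under 0.05 there were 9 members, 7 higher and 2 lower, and voom on recovered reads called 2. Of all genes, 6.44% had such a p, so the members' count is near the background. The median member was at 0.03 and the range was -0.34 to 0.47. The dark hmox1 means compared here entered the choice of members as well. Cre06.g271900 had 9.64 and 9.49 RPKM in BV-fed against 6.83 and 6.89 in untreated hmox1, at 0.43 (SE 0.13, limma adjusted p = 0.34). Cre13.g603550 had 93.3 and 96.4 RPKM in BV-fed against 97.4 and 90.1 in untreated hmox1.

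**Figure D5:**
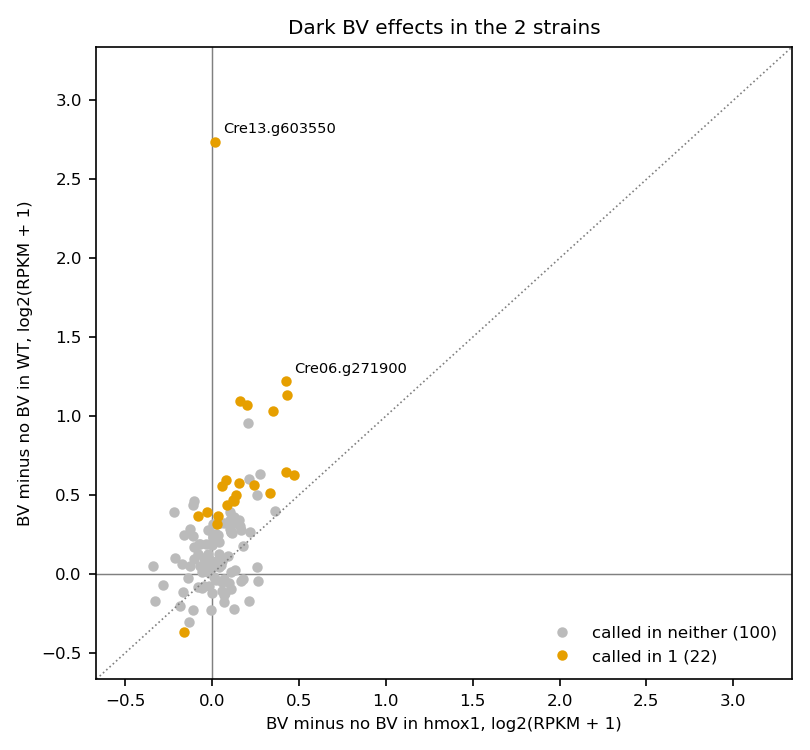
Effect of BV in the dark, BV minus no BV on the log2(RPKM + 1) scale, in hmox1 (horizontal axis) and in wild type (vertical axis) for the 122 genes. Points are coloured by call at adjusted p under 0.05, and the 22 genes called in 1 strain were all called in wild type, with Cre13.g603550 at 2.74 in wild type and 0.02 in hmox1.

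The difference of the dark BV effects, hmox1 minus wild type, was called for 2 members, both with the lower effect in hmox1, among 0.873% of all genes called lower and 0.0644% higher. Cre13.g603550 was at -2.72 (SE 0.39, limma adjusted p = 0.0087). Cre07.g354700 had 6.93 and 7.73 RPKM in BV-fed against 6.45 and 6.03 in untreated hmox1, and 12.8 and 12.2 in BV-fed against 5.58 and 5.30 in untreated wild type, at -0.87 (SE 0.15, limma adjusted p = 0.0066). At an unadjusted p under 0.05 there were 21 members, 19 of them with the lower effect in hmox1, and 9.34% of all genes had such a p. The dark means behind these effects entered the choice of members, so the counts are no independent test of them. Neither call held with a pseudocount of 0.1, at adjusted p = 0.21 for Cre13.g603550 and 0.26 for Cre07.g354700, or without replicate 1 of the BV-fed dark wild type, at 0.064 and 0.057.

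In the light, where the choice of genes used the effect of BV, the median member was 0.32 higher with BV in hmox1 and 0.18 higher in wild type, with 0.13 for all genes tested in each strain. With TMM scaling these medians were 0.179 in hmox1 and 0.098 in wild type, and without replicate 2 of lit untreated wild type, the shallowest library, the wild-type median was 0.094. The members' values ran from -1.16 to 1.92 in hmox1 and from -0.63 to 1.38 in wild type. In hmox1 109 members were above 0, and in wild type 90. Genes above 0 were not counted over all genes tested, whose median was above 0 as well, so these numbers only describe the members. Cre17.g707350 had the highest value in hmox1, with 10.4 and 12.1 RPKM in BV-fed against 1.71 and 2.84 in untreated cultures. The 12 genes left out for this effect included Cre07.g353450, whose lit means were 180 RPKM in BV-fed against 48.1 in untreated hmox1, and 103 in BV-fed against 27.1 in untreated wild type.

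Gene length was not part of the choice. The members' recovered length had a median of 2521 nt, with quartiles of 1932.5 and 3584.5 nt, against medians of 1893 nt for genes over the dark threshold and 2274.5 nt for all tested. The 1 member under 200 nt was Cre26.g772903, at 167 nt. Of the 122 members, 95 matched a locus tag of the RefSeq assembly Chlamydomonas_reinhardtii_v5.5. In its gene order 2 pairs of members were direct neighbours, and 7 pairs had at most 4 genes between them. Only matched members could be placed, so pairs among the others are missed. Cre26.g772900, Cre26.g772903 and Cre26.g772916, close by identifier, differed alike between the strains with BV, at -0.99, -0.90 and -1.08 in the dark and 0.67, 0.62 and 0.84 in the light. Each counts as 1 member, and whether they share reads was not tested.

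The first adjacent pair was Cre11.g474900 and Cre11.g474950. In the dark without BV Cre11.g474900 had 13.0 and 14.0 RPKM in hmox1 against 28.6 and 29.1 in wild type, and Cre11.g474950 had 16.3 and 16.8 in hmox1 against 38.2 and 34.0 in wild type. Both were lower in hmox1, at -1.04 and -1.08. The second pair, Cre12.g499300 and Cre12.g499250, was near equal between the strains in the dark without BV, at -0.07 and -0.13, and was higher in lit hmox1 than in lit wild type with BV, at 0.97 and 0.86. Neighbours can share reads if they overlap, and how strand was treated is not given in these sources. Of Cre16.g661200 and Cre16.g661300, with 1 gene between them, the first was lower in dark hmox1 without BV at -1.43 (SE 0.40, limma adjusted p = 0.022), and the second, at 0.22, was not called.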

How the data were processed

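RNA-seq libraries (single-end, 100 nt, per the labels' protocols) were deposited as 1 table of RPKM for 17301 genes and 16 libraries. The file does not name the unit, which was inferred from steps in the values that each equal 1 read. Bowtie is listed in the submitters' processing notes. Its version, the genome build, annotation, read counter and strand setting are not given in these sources. Reads and lengths were recovered from the RPKM steps for 16851 of 16852 genes above 0 (tolerance 0.1 reads, 99.87% of values within 0.01). Floors cover counting error only; 3 reads of a 2-kb gene were worth 0.0346 to 0.147 RPKM.

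Groups came from the labels. limma 3.58.1 (R 4.3.3) was run on log2(RPKM + 1), which understates the change of low genes, with 8 group means, 8 residual degrees of freedom, a trend and robust moderation, over 13972 genes that reached 1 RPKM in 2 or more libraries. All 122 members passed that filter, as their dark minimum required. Genes at Benjamini-Hochberg adjusted p under 0.05 were called in 7 comparisons. The test and the read recovery were tested on simulated data. Alternatives were a pseudocount of 0.1, other filters and scalings (TMM, quantile), a replicate block, fewer groups and left-out libraries; voom on recovered reads was added after seeing the data.

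The members and lists were chosen with earlier results of these data known. Named genes were the 8 highest in the dark, the 8 with the deepest mean light effect, up to 4 called genes per direction and comparison whose libraries did not overlap, those at the threshold, adjacent pairs, and the 4 most and least even; a few are given in full. Other genes named were chosen after their values were seen. No names, sequences or products were at hand for the 95 matched members, so the planned pathway, protein and promoter descriptions were not made.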

Additional observations from a re-analysis of the deposited data

Results flagged for a closer look

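The effect of BV in the dark differed between hmox1 and wild type for 2 members by a test of the difference itself. For Cre13.g603550 the difference of the log2 effects, hmox1 minus wild type, was -2.72 (limma adjusted p = 0.0087), and for Cre07.g354700 it was -0.87 (limma adjusted p = 0.0066). Of all genes, 0.873% were called in this direction. The dark means behind the difference also entered the choice of members, so the count of 2 is no independent test of them. Neither gene passed when the pseudocount was 0.1 (limma adjusted p = 0.21 and 0.26) or when replicate 1 of BV-fed dark wild type was left out (0.064 and 0.057). Each gene had a higher level with BV in both wild-type libraries than in either untreated one.

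The strain difference had opposite signs in dark and light for some members, with libraries that did not overlap in either condition. Without BV, 11 members were lower in dark hmox1 and higher in lit hmox1 than in wild type, and with BV 32 were. The same held for 1.46% of all genes without BV and 2.97% with BV. That difference between dark and light was not tested, since it is made of the values that chose the genes. The numbers were 7 and 26 with TMM scaling, 4 and 22 with quantile scaling, and 13 and 32 with voom on recovered reads. No member was higher in dark hmox1 and lower in lit hmox1 under any of these scalings or fits. Of all genes higher in dark hmox1, only 4.5% without BV and 6.84% with BV were lower in lit hmox1. With 15 and 11 members higher in dark hmox1, a count of 0 is near that share.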

How the results depend on the processing

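Total counts of members called for the strain in the dark with BV and in the light stayed within 1.5 times under each alternative run, but their directions did not: quantile scaling gave 25 higher and 28 lower in the light without BV (68 and 8 in the report, 33 genes shared) and 48 and 20 with BV (87 and 6). A pseudocount of 0.1 gave 38 calls for the strain in the dark without BV (60 in the report), 8 for BV in dark wild type (22) and 0 for the difference of the dark BV effects (2). For BV in dark wild type, BV in dark hmox1 and that difference, voom gave 34, 2 and 4 calls, and a fit of only the groups compared gave 36, 4 and 7. Quantile scaling gave 1 call for BV in dark hmox1. Leaving out 1 library gave 44 to 50 and 56 to 59 calls for the strain in the dark without and with BV, 63 to 70 and 85 to 91 in the light, 6 to 13 for BV in dark wild type, 0 for BV in dark hmox1 and 0 to 2 for the difference.

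TMM scaling left 68 genes that met the rule, 67 of them among the 122. Quantile scaling gave 104 genes, 89 of them among the 122, and 0.1 RPKM added gave 157, 108 of them among the 122. Leaving out 1 library gave 118 to 128. The median light effects in BV-fed hmox1, untreated hmox1, BV-fed wild type and untreated wild type were -2.43, -2.97, -3.84 and -4.04 with 0.1 added, -1.85, -2.00, -2.69 and -2.65 by TMM, and -1.98, -2.20, -2.82 and -2.60 by quantile scaling. Without 1 library they ran from -2.055 to -2.026, -2.431 to -2.364, -3.044 to -2.999 and -3.07 to -2.954. The median effect of BV in the light was 0.179 in hmox1 and 0.098 in wild type by TMM, and 0.251 to 0.366 and 0.094 to 0.254 without 1 library. The cause of these shifts was not tested. Of the named genes' values under the alternatives, 459 kept their call and 17 lost it, and none changed direction.

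Same-numbered libraries correlated in their deviations at -0.152 to 0.272 over 28 pairs of groups, over 0.1 in 10 of them, so the numbers were not taken as pairing the samples. With the replicate block the counts were 61 and 71 for the strain in the dark without and with BV, 76 and 93 in the light, 24 and 0 for BV in dark wild type and dark hmox1, and 2 for the difference. The planned edgeR count test was not run, and voom on recovered reads was run instead. Depth limits the lit values most, as the median member had 18 reads in the shallowest lit library.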
